A study of Rattus norvegicus with 8 samples.

Results

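The 10 tubulin genes described here are 4 alpha-tubulin genes (Tuba1a, Tuba1b, Tuba1c and Tuba4a) and 6 beta-tubulin genes (Tubb2a, Tubb2b, Tubb3, Tubb4b, Tubb5 and Tubb6). They were taken by symbol from a fixed list, and all 10 were found among the 17379 genes of the libraries, each as 1 RefSeq transcript. The RNA came from dorsal root ganglion neurons, sensory neurons, of embryonic day 15 rats, grown for 7 days in microfluidic chambers, in which axons extend through narrow grooves into a separate compartment. A lentivirus carried a short hairpin RNA against Pum2, an RNA-binding protein of the Pumilio family, or a control hairpin, and was added on the day of plating. The 4 groups were somatic shControl, somatic shPum2, axonal shControl and axonal shPum2, with 2 libraries each, 8 in all. Library construction used an ultra-low input kit for axonal RNA and a standard one for somatic RNA, so the kit is confounded with the compartment and the effects of these cannot be told apart. Somatic RNA is labelled as coming from cell bodies with axons. The labels do not say whether the 2 libraries of a group came from separate cultures, so p-values measure the spread between these libraries, which may be technical.

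Alpha- and beta-tubulin pair into heterodimers, and these dimers stack end to end into microtubules, the tracks and struts of the axon. Vertebrates carry several genes, called isotypes, for each partner, which differ mostly in the tail of the protein, and neurons use a mixture of them. The level of free tubulin dimers is known to control the stability of tubulin mRNAs in animal cells, a feedback in which TTC5 binds the emerging tubulin chain on the ribosome. Newly made tubulin chains are folded with the help of prefoldin and the chaperonin CCT and are then joined into dimers by folding cofactors.

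The tubulin genes lie partly in clusters of near-identical copies. Tuba1a and Tuba1b are direct neighbours with 0 protein-coding gene starts between them, and Tubb2a and Tubb2b have 1 such start between them, Tubb2al1, in the RefSeq annotation of assembly GRCr8. Reads that fit more than 1 member were divided by estimation, so single values of these genes are uncertain, and sums over the family are given beside them. A promoter window was matched for all 10 members in the RefSeq promoter table of GRCr8, by symbol. The letters TATAA, the core of the TATA box, were searched for on the gene's strand in the 30 bases that lie from 45 to 16 bases before the annotated start. They were in 4 of the 10 windows, and in 3.02% of 33469 RefSeq promoter windows of the same length. The reverse complement, TTATA, was in 1 of the 10 windows and in 1.8% of all; in Tubb3 it overlaps the forward match. The 4 windows are shown because they are a shared feature of members on different chromosomes, and capitals mark TATAA:
Tuba4a, chr9:84162600-84162629, minus strand: gtcccgcctccttcaTATAAgagtggtgcg
Tubb2a, chr17:31002141-31002170, plus strand: gggcggtccccgggTATAAaaggtggagct
Tubb3, chr19:68365642-68365671, plus strand: gggcagtctctTATAAgagggcgcggcgga
Tubb4b, chr3:28438471-28438500, minus strand: ggcgggtcataagaggtaTATAAatgctgg
The match begins 30, 31, 34 and 27 bases before the annotated start in these 4 genes. The Tubb2b window begins with ataa, so a match that crossed its first base would not have been counted. Promoter use was not measured in these libraries.

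The libraries held from 11641947 estimated counts (axonal shPum2 replicate 1) to 25821766 (somatic shPum2 replicate 2). Where 4 values of a compartment are listed, the order is shControl replicates 1 and 2, then shPum2 replicates 1 and 2. Pum2 fell from 164 and 160 CPM, counts scaled by the total of the library, to 38.2 and 36.5 CPM in the somatic libraries, a log2 change of -2.13 (SE 0.07, adjusted p = 0.0247, edgeR's quasi-likelihood test with Benjamini-Hochberg adjustment). Without either somatic shControl library no gene passed, Pum2 included. In the axonal libraries shControl left 3.25 and 0.443 CPM and shPum2 1.46 and 7.07 CPM, so the knockdown could not be checked there. All 13 neuron markers in the files had counts in every library, with summed levels of 30670 to 35960 CPM in somatic and 18310 to 34030 CPM in axonal libraries. Nefm alone gave 16340, 10290, 23710 and 14250 CPM of the axonal sums and was higher in every axonal than in any somatic library. The other neuron markers had lower axonal than somatic means, from Stmn2 (3133 to 3817 CPM somatic, 2182 to 3680 CPM axonal) to Scn10a (946 to 1156 and 1.80 to 29.3 CPM). Fibroblast markers summed to 4222, 2302, 10030 and 2267 CPM in the somatic libraries and to 562, 705, 1099 and 297 CPM in the axonal ones, with 10 of 10 markers detected in each apart from Lum in 1 axonal library. Macrophage and blood markers summed to 91.2, 59.4, 205 and 50.1 CPM in somatic and to 1983, 2864, 3707 and 271 CPM in axonal libraries. Schwann and satellite glia markers summed to 17.6 to 47.6 CPM in somatic and 17.3 to 82.8 CPM in axonal libraries, where Gfap and Cdh19 were at 0. Markers of dividing cells (60.9 to 156 CPM somatic, 29.3 to 54.3 CPM axonal) and of endothelium (10.4 to 16.4 and 0.257 to 14.4 CPM) were low. In bulk libraries, fewer cells of a type and less RNA per cell cannot be told apart.

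Tubulin transcripts were among the most abundant in the somatic compartment. Levels are compared between genes as TPM, a share of all transcripts that is scaled for transcript length. Tuba1a, the main alpha-tubulin of developing neurons, had 13160 and 14010 TPM in the somatic shControl libraries and 12190 and 14090 TPM in the shPum2 libraries. It ranked first of all genes in 3 of these libraries and 2 in the other, shPum2 replicate 1. The 4 values overlapped between hairpins. All 10 genes together made up 2.96%, 3.17%, 2.77% and 3.19% of the counts of the somatic libraries.

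The order of the isotypes was the same in every somatic library. Tuba1a was followed by Tubb2b, a beta-tubulin of developing neurons, at 4925 ± 311 TPM (mean ± SD, n = 4 somatic libraries of both hairpins). Tubb3, the neuron-specific beta-tubulin that is widely used as a neuronal marker, came next at 3997 ± 291 TPM. Tubb5, a broadly expressed beta-tubulin, stood at 3183 ± 153 TPM and Tubb2a, another neuronal beta-tubulin, at 2947 ± 198 TPM. The TPM ranges of Tubb5 and Tubb2a overlapped over the 4 libraries, but within every library Tubb5 stood above Tubb2a, at 19.55% to 20.41% against 18.1% to 18.62% of the beta TPM. The TPM of Tubb2b, Tubb3 and Tubb5 did not overlap each other. The broadly expressed alpha-tubulin Tuba1b had 2517 ± 68.0 TPM and Tubb4b, a beta-tubulin found in many cell types, 899 ± 35.7 TPM. At the bottom stood Tuba4a with 194 ± 17.7 TPM, Tubb6 with 54.9 ± 29.4 TPM and Tuba1c with 24.3 ± 6.57 TPM. The ranges of Tubb6 and Tuba1c, both broadly expressed isotypes, overlapped, with Tubb6 above Tuba1c within every library.

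The axonal libraries had the same leading gene and a different order behind it. Tuba1a was at 4614 and 5087 TPM with shControl and at 7277 and 7058 TPM with shPum2, and it ranked 39, 34, 16 and 17 of all genes. Tuba1b came second at 1145 and 1235 TPM with shControl and 1289 and 1536 TPM with shPum2, and no other member reached its level in any axonal library. Tubb3 followed with 354 ± 106 TPM (mean ± SD, n = 4 axonal libraries of both hairpins), Tubb5 with 327 ± 68.0 TPM, Tubb2a with 274 ± 171 TPM and Tubb2b with 233 ± 88.4 TPM. The TPM ranges of these 4 genes overlapped across libraries. Within every axonal library, however, Tubb3 (23.01% to 33.25% of the beta TPM) and Tubb5 (20.39% to 32.82%) stood above Tubb2b (16.61% to 17.43%), while the place of Tubb2a, at 13.14% to 24.49%, changed from library to library. Tubb4b had 156 ± 89.2 TPM, Tuba4a 82.6 ± 49.2 TPM, Tuba1c 57.6 ± 27.4 TPM and Tubb6 19.3 ± 11.2 TPM, and the range of each overlapped that of its neighbour in this order. Within every axonal library Tubb4b was above Tuba4a and Tuba1c above Tubb6. The lowest count behind any of these values was 249, for Tubb6 in axonal shControl replicate 1, and its 95% Poisson interval reaches 12.6% to either side, for counting error only.

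**Figure D1:**
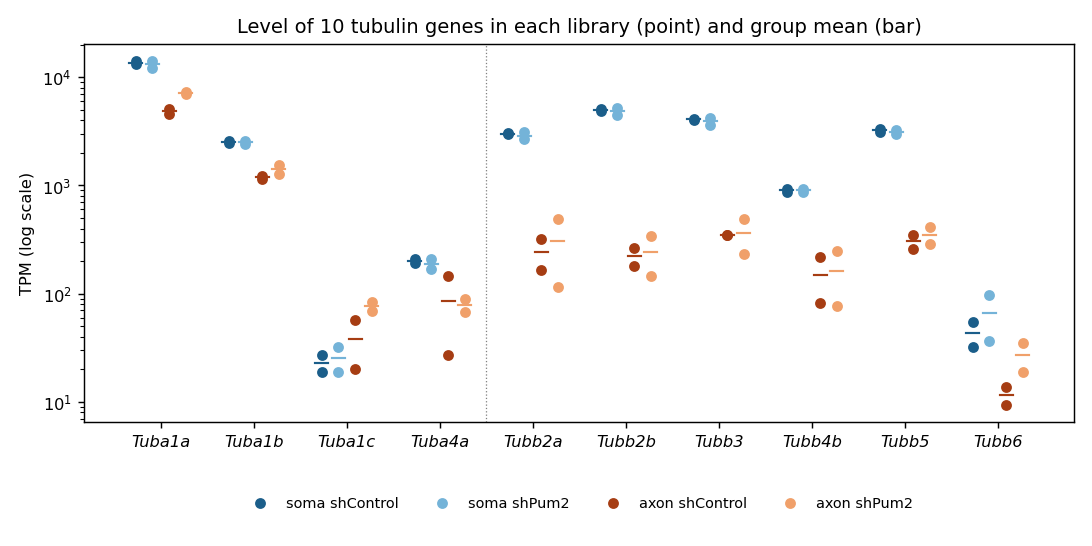
TPM (log axis) of the 4 alpha- and 6 beta-tubulin genes, separated by the dotted line, with 1 point per library, a bar at each group mean and colours for the 4 groups. The beta genes apart from Tubb6 lie at 863 to 5189 TPM in somatic and 76.8 to 494 TPM in axonal libraries, while Tuba1c is higher in the axonal means and Tubb6 overlaps between compartments.

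The balance of alpha to beta transcripts differed between the compartments in every library. The alpha sum divided by the beta sum, both in TPM, was 0.999 and 1.01 in the somatic shControl libraries and 1.01 in each somatic shPum2 library. In the axonal libraries the ratio was 5.56 and 4.30 with shControl and 4.32 and 10.03 with shPum2. The somatic libraries thus held alpha and beta transcripts in near equal amounts per length, and all 4 axonal libraries were higher, with shPum2 replicate 2 highest. Alpha genes made up 49.98% to 50.2% of the tubulin TPM in somatic libraries and 84.8%, 81.1%, 81.2% and 90.9% in axonal ones. By counts, which are not scaled for length, the alpha share was 46.5% to 46.8% in somatic and 78.8% to 89.2% in axonal libraries. This ratio is taken within a library and does not depend on how libraries are scaled to each other. It does depend on the kit, if the 2 kits recover the 10 transcripts unequally, and that was not tested.

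On the TPM scale the beta sum differed more between compartments than the alpha sum. The alpha sum was 15880, 16780, 14830 and 16910 TPM in somatic libraries and 5807, 6524, 8725 and 8747 TPM in axonal libraries. The axonal mean was 37.8% of the somatic mean with shControl and 55.0% with shPum2. The beta sum was 15890, 16650, 14710 and 16770 TPM in somatic libraries and 1044, 1518, 2018 and 872 TPM in axonal libraries. Here the axonal mean was 7.87% of the somatic mean with shControl and 9.18% with shPum2. Neither sum overlapped between compartments.

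The mixture within each partner shifted for some isotypes. Tubb2b made up 30.8%, 30.8%, 30.6% and 30.9% of the beta TPM in the somatic libraries and 17.3%, 17.4%, 17.0% and 16.6% in the axonal libraries. These shares varied by an SD of 0.145 percentage points over the 4 somatic and 0.363 over the 4 axonal libraries and did not overlap. Tubb3, in contrast, held 24.96 ± 0.408% of the beta TPM in somatic and 26.7 ± 4.57% in axonal libraries (SD, n = 4 each), and these overlapped. Tubb2a likewise overlapped, at 18.4 ± 0.222% and 18.7 ± 5.10%. The ratio of Tubb2a to its neighbour Tubb2b was 0.598 ± 0.00594 in somatic and 1.09 ± 0.293 in axonal libraries, without overlap, but these 2 transcripts share reads. The share of Tubb4b was 5.51% to 5.86% in the somatic and 7.77% to 14.4% in the axonal libraries, without overlap. That of Tubb6 was 0.192% to 0.657% and 0.896% to 2.18%, again without overlap. Tubb5 held 19.55% to 20.41% and 20.39% to 32.82%, and these overlapped. Among the alpha genes, Tuba1a kept most of the TPM in both compartments, at 82.2% to 83.5% and 78.0% to 83.4%. Tuba1c was a minor isotype in both, at 0.112% to 0.218% of the alpha TPM in somatic and 0.345% to 0.962% in axonal libraries, without overlap.

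**Figure D2:**
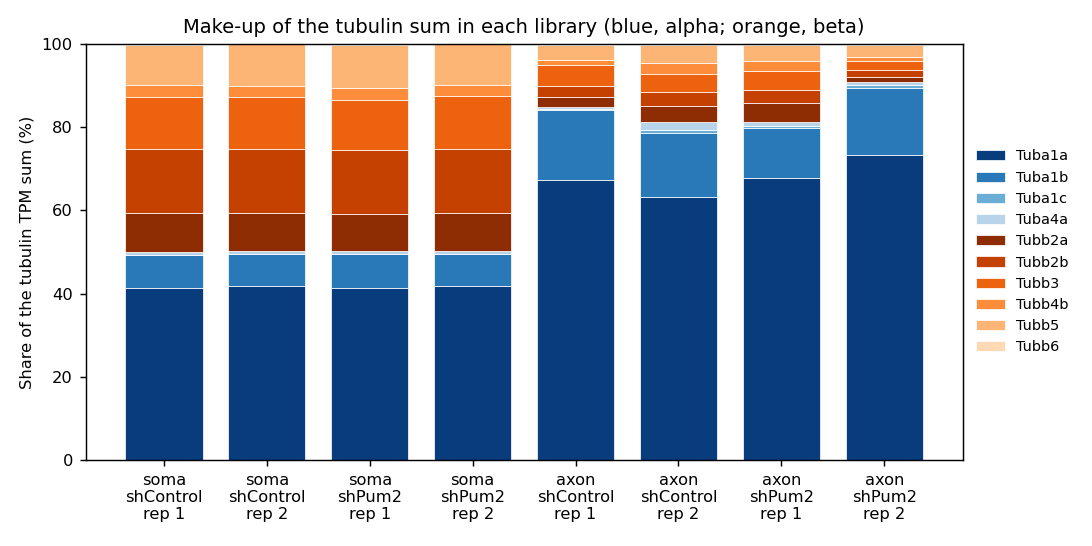
Share of each gene (colour) in the TPM sum of the 10 tubulin genes, in percent, in each of the 8 libraries; blue stands for alpha and orange for beta genes. The somatic bars are nearly alike, with 49.98% to 50.2% alpha, and the axonal bars have 81.1% to 90.9% alpha.

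Whether a member counts as higher or lower in axons depends on how libraries that differ this much are scaled. With TMM, which centres the libraries on genes of similar ratio, 3 of the 10 members rose and 1 fell in axonal against somatic shControl libraries, among 9.41% of 12337 genes that rose and 18.5% that fell. With shPum2 the counts were again 3 and 1, against 8.45% and 16.2% of all genes. The members that rose were the alpha genes Tuba1a, Tuba1b and Tuba1c in both, and the one that fell was Tubb2b in both. These comparisons come from different libraries but from a single fit with a common spread. The median log2 change of the 10 members was 0.49 with shControl and 0.69 with shPum2, beside -0.75 and -0.64 over all genes tested. By total counts alone the median of all genes was -2.34 and -2.03, and that of the members -1.09 and -0.76.

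Tubb2b had 4482 and 4764 CPM in the somatic and 391 and 529 CPM in the axonal shControl libraries. With shPum2 it had 4135 and 4827 CPM in the somatic and 653 and 329 CPM in the axonal libraries. All axonal values lay below all somatic ones. With TMM its log2 change was -1.75 (SE 0.30, adjusted p = 0.0143) with shControl and -1.74 (SE 0.30, adjusted p = 0.0160) with shPum2, by edgeR's quasi-likelihood test. When libraries were scaled by total counts alone it was -3.33 (adjusted p = 0.00527) and -3.19 (adjusted p = 0.00673). Tubb2b was the only member called in the same direction with both hairpins under both scalings. Relative to the median of all genes it stood at -0.998 and -1.11 with TMM and -0.98 and -1.16 by total counts, with no test.

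Tuba1a went the other way with TMM. Its CPM were 11410 and 12330 in the somatic and 9484 and 9630 in the axonal shControl libraries, and 10600 and 12400 in the somatic and 13130 and 15170 in the axonal shPum2 libraries. The axonal values thus lay below the somatic ones with shControl and above them with shPum2 on the scale of total counts. With TMM its log2 change was 1.27 (SE 0.34, adjusted p = 0.0352) and 1.88 (SE 0.34, adjusted p = 0.0185) by edgeR's quasi-likelihood test. With DESeq2 size factors in the same test the shControl change of 1.56 was not called (adjusted p = 0.0691). Scaled by total counts it was -0.31 (adjusted p = 0.0961) and 0.30 (adjusted p = 0.120), so no direction is given for Tuba1a. Relative to the median of all genes, Tuba1a stood at 2.02 and 2.52 with TMM and 2.03 and 2.33 by total counts, on the log2 scale and with no test. For Tuba1b the TMM change was 1.67 (SE 0.41) and 1.97 (SE 0.41), with adjusted p = 0.0273 and 0.0208, and by total counts 0.09 and 0.36, not called.

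By CPM Tuba1c was higher in every axonal than in any somatic library. It had 22.4 and 16.05 CPM in the somatic and 39.5 and 103 CPM in the axonal shControl libraries. With shPum2 it had 27.01 and 15.96 CPM in the somatic and 120 and 174 CPM in the axonal libraries. By TPM the compartments overlapped, at 20.01 TPM in axonal shControl replicate 1 beside 26.85 TPM in somatic shControl replicate 1. The TMM change was 3.46 (SE 0.73, adjusted p = 0.0208) with shControl and 4.41 (SE 0.76, adjusted p = 0.0162) with shPum2. By total counts it was 1.89 (adjusted p = 0.0753) and 2.77 (adjusted p = 0.0311), called in the latter alone. Leaving out each library in turn, the TMM change ran from 2.65, without axonal shControl replicate 2, to 4.05, without replicate 1, with shControl, and from 3.64 to 5.05 with shPum2. The sum of macrophage and blood markers, given above, was also higher in every axonal than in any somatic library. Single markers did not all follow: C1qa had 0.37 CPM in axonal shControl replicate 2 and 12.35 CPM or more in somatic libraries. Tuba1c was highest, at 174 CPM, in axonal shPum2 replicate 2, where the axonal sum was lowest, at 271 CPM. The part of these markers in the Tuba1c values was not tested. Tuba1a, also on chromosome 7, had 9484 to 15170 CPM in the axonal libraries, and the part of reads that fit both genes in the Tuba1c values was not tested either.

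Tubb3 had 3895 and 4104 CPM in the somatic and 801 and 742 CPM in the axonal shControl libraries, and 3503 and 4194 CPM against 992 and 557 CPM with shPum2. All axonal values lay far below the somatic ones on this scale. The log2 change by total counts was -2.37 (SE 0.30, adjusted p = 0.00702) with shControl and -2.31 (SE 0.30, adjusted p = 0.00851) with shPum2. With TMM it was -0.79 (SE 0.27, adjusted p = 0.0717) and -0.85 (SE 0.27, adjusted p = 0.0648), not called. That call turned on the libraries in the TMM fit, by the same edgeR test. Tubb3 was called lower with shControl in a fit of the 4 shControl libraries alone (adjusted p = 0.0445) and without either axonal shPum2 library (adjusted p = 0.0147 and 0.0150). With shPum2 it was called without axonal shControl replicate 2 (adjusted p = 0.0488) and without either axonal shPum2 library (adjusted p = 0.0320 and 0.0415). Relative to the median of all genes Tubb3 stood at -0.04 and -0.21 with TMM and -0.03 and -0.28 by total counts, with no test. Tubb5 and Tubb2a behaved likewise, called lower by total counts with both hairpins (Tubb5 -2.23 and -2.01, Tubb2a -2.47 and -2.14 on the log2 scale) and not with TMM (Tubb5 -0.66 and -0.49, Tubb2a -0.90 and -0.78). With TMM, Tubb5 was called lower with shControl without either axonal shPum2 library (adjusted p = 0.0331 and 0.0343, edgeR). By total counts 4 members fell with each hairpin, where 29.2% and 24.4% of all genes fell. None rose with shControl and 1 did with shPum2, where 4.94% and 4.36% of all genes rose. Tuba4a, Tubb4b and Tubb6 were called under neither scaling, and their direction turned between the scalings. With TMM, Tuba4a was called higher without axonal shControl replicate 1, by 2.28 with shControl (adjusted p = 0.0223) and 1.53 with shPum2 (adjusted p = 0.0321), and with shPum2 also without axonal shControl replicate 2 (1.41, adjusted p = 0.0293, edgeR). DESeq2 called Tubb6 higher with shPum2 (1.65, adjusted p = 0.0496).

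**Figure D3:**
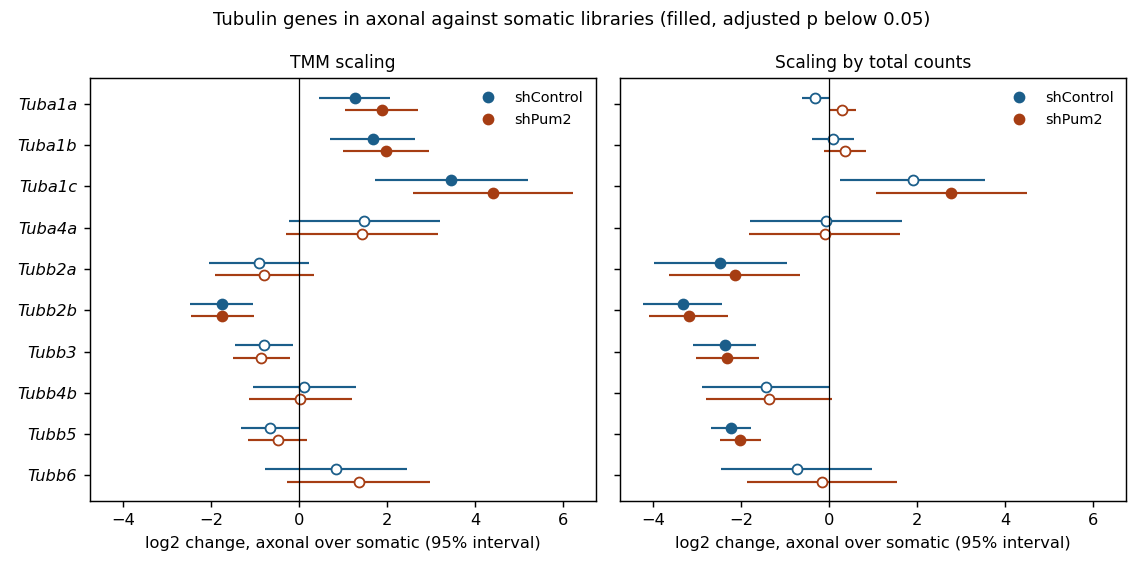
Log2 change of each tubulin gene in axonal over somatic libraries with its 95% interval, with TMM (left) and with scaling by total counts (right), for shControl (blue) and shPum2 (brown); filled points have an adjusted p below 0.05. Every point moves left from the left to the right panel, and Tubb2b is filled and below 0 in both.

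The TMM calls of the members were lost in both comparisons without any single somatic library, shControl or shPum2, replicate 1 or 2. With shControl, calls over all genes were also lost without either somatic shControl library. Without either somatic shPum2 library some genes were still called, but no member was. The shControl changes then ran from 1.16 to 1.34 for Tuba1a, 1.59 to 1.72 for Tuba1b and 3.25 to 3.66 for Tuba1c. Without axonal shControl replicate 1 or replicate 2, Tuba1a and Tuba1b no longer passed in the shControl comparison, while Tuba1c and Tubb2b did. In a fit of the 4 shControl libraries alone, Tuba1a, Tuba1b, Tuba1c and Tubb2b passed and Tubb3 was called lower as well. In a fit of the 4 shPum2 libraries alone Tuba1c passed and Tuba1a, Tuba1b and Tubb2b did not (adjusted p = 0.105, 0.0905 and 0.0549, edgeR). The sum over the 10 genes turned with the scale too. In CPM it was 29630 and 31670 in the somatic and 14510 and 15690 in the axonal shControl libraries, an axonal mean of 49.2% of the somatic mean. With shPum2 it was 27680 and 31880 against 19940 and 21130 CPM, or 69.0%. In TPM the axonal mean was 22.8% and 32.2% of the somatic one, and with TMM-scaled library sizes 147% and 204%.

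With the hairpin against Pum2, no tubulin gene passed the test in the somatic compartment. Of the 10 members, 0 passed, where 0.0081% of 12346 genes did, namely Pum2 itself, and 0.599% had an unadjusted p below 0.05. None of the members had an unadjusted p below 0.05. The log2 changes ran from -0.08 to 0.15 for 9 members and the TPM of all 10 overlapped between hairpins, where 11% of genes tested were higher and 13.7% lower without overlap. For Tubb3 the change was -0.06, with a 95% interval from -0.56 to 0.44, and for Tuba1a -0.05, from -0.66 to 0.55. The median was -0.05, beside 0.01 over all genes tested. In 7 of the 10 members the highest and the lowest somatic CPM were the 2 shPum2 libraries, replicate 2 and replicate 1. The family sum had a log2 ratio of -0.04 with an SD of 0.16 for the difference. The authors' deposited table gives somatic log2 fold changes from -0.05 to 0.06 for the 10 genes, with adjusted p = 0.9999 for each. On simulated counts of 12114 genes, 54% of genes changed 2-fold were recovered in this comparison.

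Tubb6 had the largest somatic difference among the members and no call. It had 52.2 and 31.2 CPM with shControl and 93.2 and 35.9 CPM with shPum2. The high value was a single library, shPum2 replicate 1, and the groups overlapped. The log2 change was 0.61 (SE 0.49, 95% interval -0.68 to 1.90, adjusted p = 0.9997 by edgeR's quasi-likelihood test), and without shPum2 replicate 1 it was -0.18. Fibroblast markers were highest in the same library, at 10030 CPM beside 2267 to 4222 CPM in the other somatic libraries, and second highest in the library with the second highest Tubb6. Macrophage and blood, glia, dividing-cell and endothelium sums were also highest in somatic shPum2 replicate 1. Among axonal libraries, Tubb6 and fibroblast markers were both highest in shPum2 replicate 1 (70.1 and 1099 CPM). The second highest Tubb6, 45.3 CPM, was in shPum2 replicate 2, with the lowest fibroblast sum, 297 CPM. The part of these markers in the Tubb6 values was not tested. Tubb3 was lowest of the somatic libraries in shPum2 replicate 1, at 3503 CPM, and highest of the axonal libraries in shPum2 replicate 1, at 992 CPM.

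**Figure D4:**
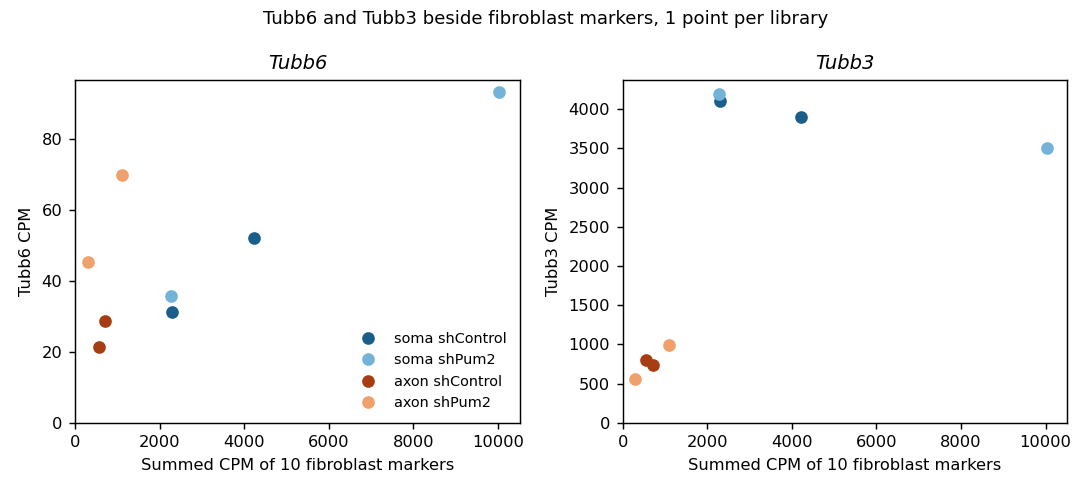
CPM of Tubb6 (left) and Tubb3 (right) against the summed CPM of 10 fibroblast markers, 1 point per library, coloured by group. Among the somatic libraries the one with 10030 CPM of fibroblast markers has the highest Tubb6, 93.2 CPM, and the lowest Tubb3, 3503 CPM; the axonal libraries lie apart, at 297 to 1099 CPM of these markers.

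In the axonal compartment no tubulin gene passed the test either. Of the 10 members, 0 passed among 8517 genes tested, where 0% did by edgeR's quasi-likelihood test and 3.02% had an unadjusted p below 0.05. DESeq2 called 346 genes and none of the 10 members. A group of 4 members, Tuba1a, Tuba1b, Tuba1c and Tubb6, had TPM in both shPum2 libraries above both shControl libraries, where 16.2% of the genes tested did. By CPM it was 3, without Tuba1b, where 15.8% did. The family sum was likewise above, at 19940 and 21130 CPM against 14510 and 15690 CPM, with a log2 ratio of 0.44 and an SD of 0.10 for the difference. The sum was not tested, and an SD from 2 libraries per group is itself too uncertain to judge this ratio by.

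Tuba1a had a log2 change of 0.49 (SE 0.66) with shPum2 in axons, and its 95% interval ran from -1.02 to 2.01. Tuba1c, at 39.5 and 103 CPM with shControl and 120 and 174 CPM with shPum2, had a log2 change of 1.01 (SE 0.87, 95% interval -0.986 to 3.002). Without axonal shControl replicate 1 or 2 the Tuba1c change was 0.55 or 1.84, and without shPum2 replicate 1 or 2 it was 1.46 or 0.36. The Tuba1a change was 0.83 without axonal shPum2 replicate 1 and 0.0547 without replicate 2. Tubb6, at 21.3 and 28.8 CPM against 70.1 and 45.3 CPM, had one of 1.06 (SE 1.203, 95% interval -1.69 to 3.81). All 10 had an adjusted p of 0.9998. The authors' deposited table gives axonal log2 fold changes from -0.18 to 0.97 for the 10 genes, each with adjusted p = 0.9999. The median change was 0.05, beside -0.05 over all genes tested. On simulated counts of 6768 genes, the test recovered 0% of 4-fold and 20% of 16-fold changes in this comparison, so smaller differences were not detectable.

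The 2 axonal shPum2 libraries differed from each other in 4 of the beta genes. Tubb2a had 883 CPM in replicate 1 and 244 CPM in replicate 2, Tubb2b 653 and 329 CPM, Tubb3 992 and 557 CPM, and Tubb4b 433 and 161 CPM. In these 4 genes, replicate 1 was the highest and replicate 2 the lowest of all axonal libraries, with both shControl values between them. Tuba1a was at 13130 and 15170 CPM in the same libraries, so the alpha to beta ratio of 10.03 belongs to replicate 2 alone. Macrophage and blood markers were at 3707 CPM in replicate 1 and 271 CPM in replicate 2, and neuron markers at 34030 and 24970 CPM. Most of the neuron difference was Nefm, at 23710 and 14250 CPM. Prph, Gap43, Stmn2 (2536 and 3680 CPM) and Uchl1 were higher in replicate 2, and the other neuron markers were lower there. The part of these markers in the beta-tubulin values was not tested. Tuba4a varied most within shControl, at 50.6 CPM in replicate 1 and 249 CPM in replicate 2.

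**Figure D5:**
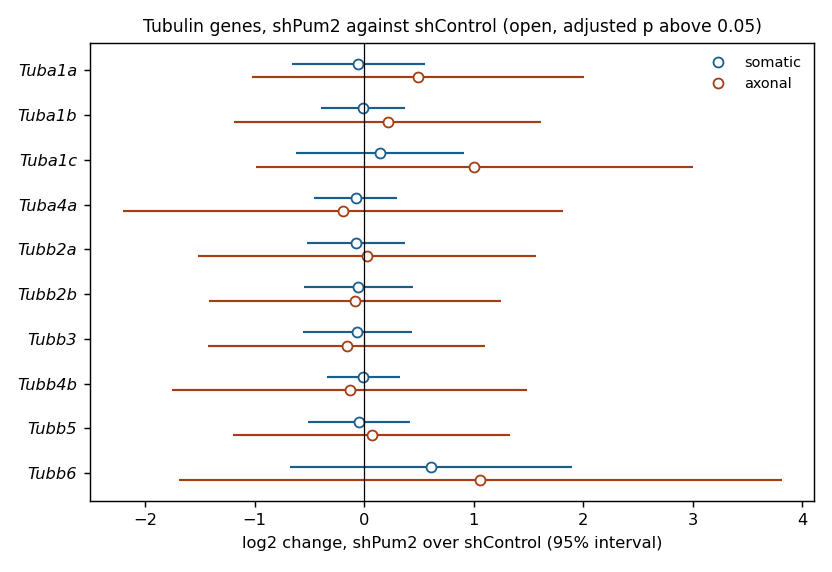
Log2 change of each tubulin gene with shPum2 over shControl and its 95% interval, in somatic (blue) and axonal (brown) libraries; all points are open since no adjusted p was below 0.05. Every interval includes 0, and the axonal intervals are wider than the somatic ones.

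The difference between the 2 hairpin effects, axonal minus somatic, was tested in the fit of all 8 libraries. Of the 10 members 0 passed, where 0% of 12337 genes did by edgeR and 7.81% had an unadjusted p below 0.05. DESeq2 called 627 genes and none of the members. The changes ran from -0.09 for Tubb4b to 0.94 for Tuba1c, with a median of 0.14 beside -0.01 over all genes tested. For Tuba1a it was 0.61 (95% interval -0.52 to 1.74).

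Genes that act on tubulin were described from lists by function. Of 8 tubulin folding cofactors, 2 rose in axonal against somatic libraries with shControl and 3 with shPum2 with TMM, beside 9.41% and 8.45% of all genes. None fell, beside 18.5% and 16.2% of all genes. Tbca, which holds beta-tubulin during dimer assembly, had 139 and 133 CPM in the somatic and 492 and 379 CPM in the axonal shControl libraries. It had 133 and 144 CPM against 410 and 614 CPM with shPum2. Every axonal value was above every somatic one, with a log2 change of 3.26 (SE 0.50, adjusted p = 0.0105) and 3.51 (SE 0.50, adjusted p = 0.00973) by edgeR's quasi-likelihood test, and it was also called higher by total counts. On that scale Tbcel fell with shControl and Tbcc with shPum2, where 29.2% and 24.4% of all genes fell; both were named after their values were seen. With TMM only, Arl2, a small GTPase that works with the cofactors, rose by 2.63 and 2.75 (adjusted p = 0.0251 and 0.0234, edgeR). Tbcb, an alpha-tubulin cofactor, rose with shPum2 by 2.46 (adjusted p = 0.0233, edgeR). The list's median was 0.21 with shControl and -0.60 with shPum2. Of 12 tested members of prefoldin and CCT, 3 rose with each hairpin and none fell with TMM, beside the same 9.41% and 8.45% of all genes that rose and 18.5% and 16.2% that fell. They were the prefoldin subunits Pfdn1 (3.88 and 4.30), Pfdn2 (2.33 and 2.86) and Pfdn5 (2.96 and 2.50), all log2 changes, and the list's median was 0.25 and 0.32. Without either somatic library of the same hairpin no gene passed, these included. Pfdn1 rose under both scalings, from 78.0 to 85.7 CPM in somatic to 368 to 663 CPM in axonal libraries. By total counts Cct4, a CCT subunit, and Pfdn6 fell with both hairpins, and Cct5 and Cct8 with shControl, so 4 and 2 of the 12 beside 29.2% and 24.4% of all genes; these 4 were named after their values were seen.

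Of 6 tested members of the gamma-tubulin ring complex, which starts new microtubules, 0 passed in either comparison of compartments, with a median of -2.76 and -0.63. Of all genes, 9.41% and 8.45% rose and 18.5% and 16.2% fell in these comparisons. Of 3 tested genes for the control of tubulin mRNA, Cnot1, a scaffold of the CCR4-NOT deadenylase, fell with shPum2, from 165 and 143 CPM in somatic to 1.63 and 0.310 CPM in axonal libraries (log2 change -5.97, SE 1.23, adjusted p = 0.0206, edgeR). With shControl it had 152 and 154 CPM against 26.9 and 4.14 CPM and did not pass (adjusted p = 0.254). Ttc5 and Cnot11 did not pass, and the median of the 3 was -1.60 and -2.73. Of the other tubulin genes listed, 3 of 10 could be tested, and Tubb4a, Tubg1 and Tubd1 did not pass with TMM, with a median of -0.64 and -0.91. Tubb4a fell by total counts with shControl, where 29.2% of all genes fell. With the hairpin against Pum2, no gene of any of these lists passed in either compartment, or in the difference between them.

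The genes most like the family sum across the 8 libraries were Tceal5, Pcgf3, Syt9, Pcbp3 and Chmp7, with Pearson r of log2(CPM + 1) from 0.9909 to 0.9970 over 4895 genes searched. For Tubb3 they were Syt1 (0.9980), Lgalsl and Carmil3. All 8 genes were lower in the axonal than in the somatic mean (38.4 to 496 CPM somatic, 1.57 to 100 CPM axonal), and the 8 points form 2 clusters by compartment and kit, so these values describe that split.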

How the data were processed

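The authors' deposited file of each library gives estimated counts and TPM per RefSeq transcript from kallisto, and 2 lengths of each transcript (full and effective), per the file headers. The submitters' processing notes name kallisto, DESeq2 and the build Rnor_6.0, without versions. The authors' deposited comparison tables hold, for each gene, the mean normalised signal, the log2 fold change with its standard error and statistic (a score) and p-values, per the file headers. Of 18321 transcripts, 17367 (94.8%) were matched to symbols of RefSeq assembly GRCr8, which also gave the gene order and promoter sequences. Estimated counts were summed per gene and rounded. Libraries of a group were not copies of each other (chi-square per degree of freedom from 13.2 to 336).

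Each hairpin comparison was fitted on the 4 libraries of its compartment, and the others on all 8, with edgeR 4.0.16 in R 4.3.3 (quasi-likelihood test, TMM, its expression filter, Benjamini-Hochberg adjustment over all genes tested, threshold 0.05). All 10 members passed the filter in every fit. SEs come from the F statistic. TMM factors were 1.66 to 1.80 in somatic and 0.478 to 0.754 in axonal libraries. Recovery was tested on simulated data in which 200 genes were changed. Alternatives were DESeq2 1.42.0, its size factors, total counts, no filter, other sets of libraries, the replicate number as a block and leaving out each library. Poisson intervals cover counting error only. The members and lists were chosen with earlier results of these data known. All 10 members are named, with Pum2, up to 4 genes per list and comparison with the smallest p, and the genes most like the family sum and Tubb3.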

Additional observations from a re-analysis of the deposited data

How the results depend on the processing

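Log2 changes of members that turned sign were as follows, and the cause was not tested. Scaled by total counts they were 0.0017 for Tubb4b with shPum2 in soma; 0.10, 0.01 and 0.0781 for Tubb2b, Tubb3 and Tubb4b in axons; -0.31, -0.0722, -1.44 and -0.73 for Tuba1a, Tuba4a, Tubb4b and Tubb6 in axonal against somatic shControl; -0.10, -1.37 and -0.16 for Tuba4a, Tubb4b and Tubb6 with shPum2; and 0.0609 and 0.0711 for Tubb3 and Tubb4b in the difference of the hairpin effects. With DESeq2 size factors and its own test, Tubb2a was -0.0531 and -0.0639 in axons and -0.0176 and -0.0088 in the difference, where Tubb2b was -0.0487 and -0.0406. With the replicate block, Tuba4a and Tubb2a were 0.20 and -0.0722 in axons and Tuba4a 0.20 in the difference. The log2 family sum was -2.13 and -1.63 by TPM and 0.56 and 0.99 by TMM for the compartments with shControl and shPum2, and the somatic alpha share was 46.63% and 46.72% by counts. DESeq2 called 2, 346 and 627 genes in soma, axons and the difference, the 8-library fit 0 in soma, and no filter 6 in axons.

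Leaving out each library in turn, with a lone library assumed to vary like the others, gave 0 to 1 calls in soma, 0 to 31 in axons, 0 to 5539 and 0 to 4862 between compartments with shControl and shPum2, and 0 to 713 in the difference. Member changes then ran, in soma, from -0.21 to 0.0871 for Tuba1a, -0.10 to 0.0735 for Tuba1b, -0.24 to 0.45 for Tuba1c, -0.28 to 0.10 for Tuba4a, -0.24 to 0.0674 for Tubb2a, -0.21 to 0.0863 for Tubb2b, -0.24 to 0.0926 for Tubb3, -0.12 to 0.0911 for Tubb4b, -0.16 to 0.0591 for Tubb5 and -0.18 to 1.12 for Tubb6. In axons they ran from -0.42 to 0.66 for Tuba1b, 0.0547 to 0.83 for Tuba1a, 0.36 to 1.84 for Tuba1c, -0.31 to -0.0416 for Tubb3, 0.92 to 1.26 for Tubb6, -0.87 to 1.34 for Tuba4a, -0.78 to 0.51 for Tubb2a, -0.32 to 0.11 for Tubb2b, -0.64 to 0.62 for Tubb4b and -0.0855 to 0.21 for Tubb5. Between compartments they ran from -0.0376 to 2.28 for Tuba4a and -0.64 to 0.69 for Tubb4b and 2.65 to 4.05 for Tuba1c with shControl, and 3.64 to 5.05 for Tuba1c and -0.22 to 0.32 for Tubb4b with shPum2. In the difference they ran from -0.49 to 0.90 for Tuba1b, -0.75 to 1.45 for Tuba4a, -0.47 to 0.55 for Tubb2a, -0.18 to 0.20 for Tubb2b, -0.23 to 0.14 for Tubb3, -0.61 to 0.65 for Tubb4b and -0.13 to 0.48 for Tubb5. Deviations of same-numbered libraries correlated at 0.673 in soma and 0.088 in axons; the labels do not say that the numbers pair libraries. The replicate block gave 1 and 0 calls for the hairpin in soma and axons, 2370 and 2199 between compartments and 0 in the difference, and changed no call of a member. The 2 libraries per group, the kit that differs between compartments and the wide axonal spread limit all values.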
